A study of Drosophila melanogaster with 6 samples.

Results

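Homeodomain proteins are transcription factors that bind DNA through a conserved fold, and the 45 fly genes described here are members that are known for setting or keeping the identity of neurons. They were chosen by symbol from the 22064 features listed for each library. The choice used no threshold on their measured values, but earlier results of these data were known. By class they comprise Hox genes (lab, Dfd, Scr, Antp, Ubx and Abd-B), NK-like and other Antennapedia-class genes, paired-class genes, LIM-homeodomain genes, POU genes, the TALE genes hth, exd, mirr, ara and caup, the cut-like genes ct, onecut and dve, and so of the sine oculis class. Single-cell transcriptomes were measured in Drosophila melanogaster brains, in 3 libraries labelled tau P251L KI (genotype label elav-tau P251L KI, treatment label Tau P251L mutant) and 3 Control libraries (elav-GAL4(x)/+, treatment label wild type). The elav-GAL4 driver is active in neurons and is named in the Control genotype, while the KI label names elav and the altered tau allele, a change in the gene for fly Tau, a protein of microtubules. Brains of 20 males and 20 females went into each library, and neither fly age nor the construction of the knock-in is given in the labels. The labels do not say whether the 3 libraries of a genotype were collected separately, so p-values measure the spread between these libraries.

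In the fly brain, a neuron is thought to take its identity from the combination of such factors that it keeps as an adult. Neurons of different birth origin can use the same transmitter, so transmitter genes and homeodomain genes are different descriptions of one cell. The same factor can be found with acetylcholine in one lineage and with GABA or glutamate in another, and several homeodomain genes are also used by glia.

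A unique molecular identifier (UMI) marks 1 captured transcript, and a barcode marks 1 droplet. Barcodes with at least 1000 UMIs were used, which were 27747, 30602 and 7932 in tau P251L KI replicates 1 to 3 and 5467, 24278 and 5693 in Control replicates 1 to 3, 101719 in all. Their median depth was 2446, 1814 and 2256.5 UMIs in the KI libraries and 1633, 2473 and 1938 UMIs in the Control libraries, and the deepest library held 5.20 times the UMIs of the shallowest. Of all barcodes, 2.17% carried a barcode sequence that also occurred in another library. The tau transcript itself stood at 312, 331 and 70.4 CPM (UMI counts scaled to a common library size) in the KI libraries and at 246, 269 and 281 CPM in the Control libraries, so that KI replicate 3 stood apart. The 5 neuron markers summed to 6294, 6998 and 6878 CPM in KI and 6002, 7176 and 6344 CPM in Control libraries. The 5 fat body markers summed to 532, 660 and 27.1 CPM in KI and 7521, 3300 and 731 CPM in Control libraries, without overlap of the groups, with Lsp2 at 0 in at least 1 library. The labelled tissue was thus matched by neuron markers in every library, with fat body transcripts differing between the genotypes.

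The factors differed widely in how many barcodes held them. In the median library, 6 members were found in over 25% of barcodes, 8 in 10 to 25%, 7 in 2 to 10%, 7 in 0.5 to 2% and 17 in under 0.5%. The broadly detected group was made up of ct, a cut-class factor known for dendrite shape in sensory neurons, onecut, which marks most neurons, the cofactor pair hth and exd, the NK gene scro, and toy, a Pax6 gene. A barcode held a median of 3 to 4 of the 45 factors, depending on the library, and 0.758% to 2.34% of barcodes held none of them.

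The transcript of ct was present in 63.6%, 67.1% and 53.7% of barcodes in KI replicates 1 to 3 and in 48.5%, 61.8% and 55.5% in Control replicates 1 to 3. That of onecut was present in 60.2%, 59.7% and 57.0% of KI and in 52.0%, 60.5% and 53.4% of Control barcodes. For hth, which carries exd into the nucleus, the shares were 52.4%, 50.7% and 51.0% in KI and 39.6%, 55.7% and 44.7% in Control libraries. The groups overlapped for all 3 genes, and Control replicate 1, the library with the lowest median depth, was the lowest each time. Its partner exd was held by 36.2%, 31.1% and 35.7% of KI and by 28.4%, 36.7% and 30.4% of Control barcodes. For scro, an NK2-type factor of the optic lobe and central brain, the shares were 35.6%, 33.2% and 35.3% in KI and 25.3%, 37.3% and 33.8% in Control libraries. These groups overlapped too.

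Shares rise with depth, so each barcode was also thinned at random to 1000 UMIs. At that depth ct was held by 50.5%, 55.7% and 45.7% of KI and by 43.7%, 50.05% and 48.7% of Control barcodes. The value for onecut dropped further, to 31.7%, 37.8% and 30.2% in KI and 34.5%, 31.6% and 32.8% in Control libraries. At equal depth ct was the more widely detected of the pair in every library, whereas the unthinned medians of ct and onecut lay at 58.7% and 58.3%. Ordering the 45 members by their median share gave 44 neighbouring pairs, of which 13 kept their order in all 6 libraries.

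Factors with shares between 10% and 25% were mostly those known from particular neuron families. They were the POU genes pdm3 (median 18.1%), acj6 (14.6%) and vvl (13.7%), the LIM-homeodomain genes Lim1 (15.5%), ap (14.9%), Lim3 (11.8%) and tup (10.9%), and ey (10.7%), the second Pax6 gene. Vsx1, hbn, Drgx, oc, Dll, mirr and caup followed with 8.68%, 7.82%, 7.28%, 5.52%, 4.83%, 3.31% and 2.04%. The 7 members from 0.5% to 2% were Awh, dve, ara, Rx, otp, bsh and Ptx1.

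**Figure D1:**
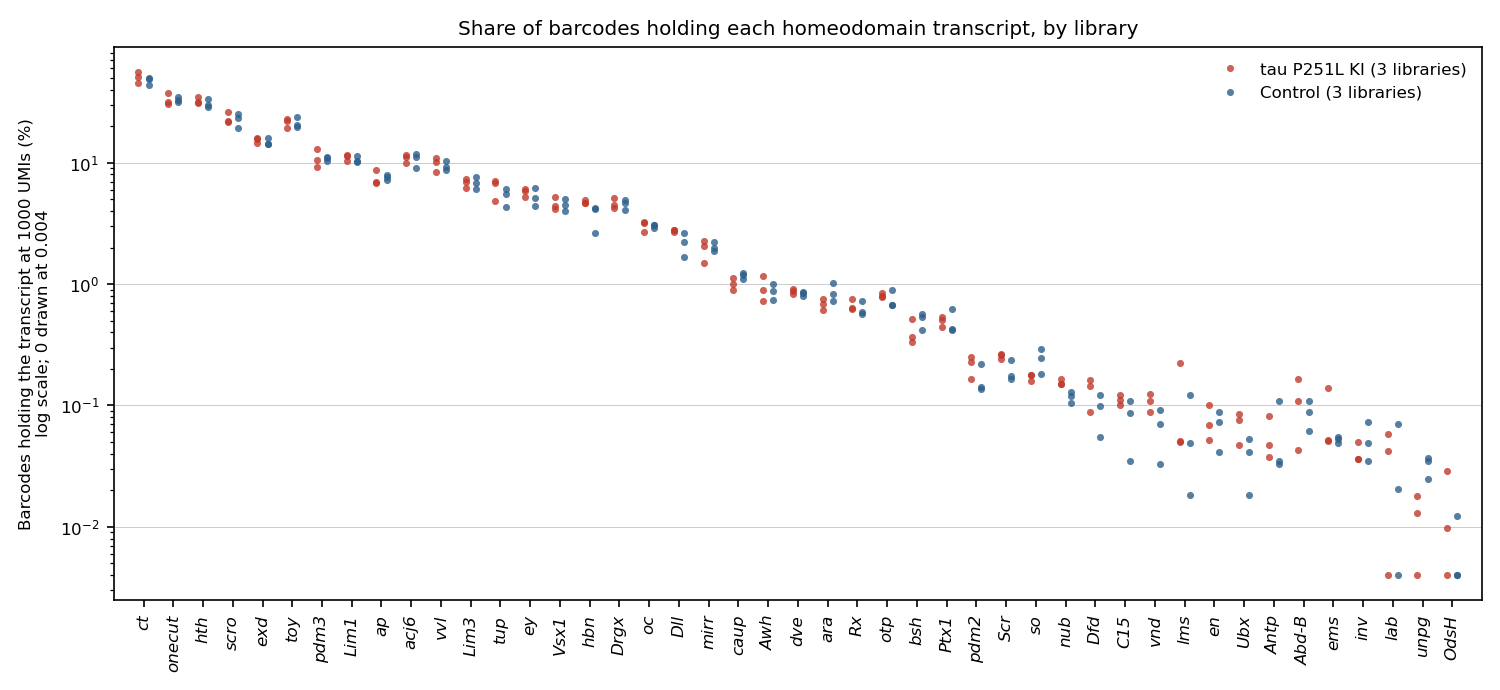
Share of barcodes holding each of the 45 transcripts after thinning to 1000 UMIs, on a log axis in percent, with 1 point per library (tau P251L KI left, Control right) and members ordered by their unthinned median share. At this depth ct lay at 45.7% to 55.7% in KI and 43.7% to 50.05% in Control libraries, and the points of both genotypes overlap for most members.

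Hox genes pattern the body axis, and their expression in the brain is known from a few posterior and subesophageal lineages. All 6 Hox members were rare here. Scr had the highest shares, with 0.584%, 0.438% and 0.479% of barcodes in KI and 0.329%, 0.498% and 0.404% in Control libraries. Dfd was held by 0.353%, 0.301% and 0.252% of KI and by 0.165%, 0.288% and 0.193% of Control barcodes. Both genes act in the gnathal segments, which contribute to the subesophageal part of the brain, and their groups overlapped.

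The trunk genes were rarer still. Abd-B was held by 0.123%, 0.206% and 0.290% of KI and by 0.110%, 0.148% and 0.123% of Control barcodes. For Ubx the shares were 0.133%, 0.196% and 0.277% in KI and 0.0366%, 0.169% and 0.0703% in Control libraries. Antp was held by 0.141%, 0.134% and 0.164% of KI and by 0.146%, 0.115% and 0.0703% of Control barcodes. For lab, the most anterior Hox gene, the shares were 0.115%, 0.0817% and 0.0756% in KI and 0.0549%, 0.0865% and 0.105% in Control libraries. The groups overlapped for each of these genes.

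The lowest shares of all belonged to OdsH, unpg, lab, inv and ems. OdsH, a paired-class gene first known from hybrid sterility, was held by 0.0937%, 0.0261% and 0.0883% of KI and by 0.0183%, 0.0659% and 0 of Control barcodes. In Control replicate 3, 0 of 5693 barcodes allow a share of up to 0.0527%, which covers counting error only. The NK-like gene unpg was held by 0.0577%, 0.0523% and 0.0378% of KI and by 0.0732%, 0.0618% and 0.0527% of Control barcodes. For inv, the sister gene of en, the shares were 0.133%, 0.124% and 0.0883% in KI and 0.128%, 0.165% and 0.193% in Control libraries. For ems, known from projection neurons of the antennal lobe, they were 0.159%, 0.141% and 0.240% in KI and 0.0915%, 0.124% and 0.105% in Control libraries. Before thinning, the KI shares of ems all lay above its Control shares, on 5, 58 and 8 UMIs in Control replicates 1 to 3. By CPM its groups did not overlap either, and 8.88% of all features were higher in KI without overlap. The groups of the other 4 genes overlapped. The muscle and brain gene lms varied widely, with 0.0366% in the lowest library and 0.497% in KI replicate 2.

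Free RNA in the droplets puts transcripts into barcodes whose cell does not make them. In barcodes with at most 100 UMIs, which hold mostly such RNA, the median member stood at 0.458 of its CPM in the barcodes of at least 1000 UMIs. The level was higher in the deep barcodes in all 6 libraries for 27 of the 45 members and lower in all 6 for 0 members. Dfd was among the most enriched, at 0.18 of its level in the deep barcodes. Dll, lms and Rx lay closest to the free RNA, at 0.99, 0.96 and 0.86. This ratio compares the make-up of the RNA and does not say how many UMIs in deep barcodes are free RNA. The part of free RNA in the values of Dll, lms and Rx was not tested.

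Barcodes were gated by markers, as Kenyon-marker (at least 4 of 6 markers including prt) and glia-marker (at least 3 of 8 including repo), with thresholds set after seeing the data. The gates held 5698 Kenyon-marker, 718 glia-marker and 95303 other barcodes, with median depths by library of 2794.5 to 4922, 2056 to 3223 and 1567 to 2395 UMIs. The fewest glia-marker barcodes in a library were 25. Shares by gate in the text are pooled over the barcodes of all 6 libraries. Without thinning, elav, a gene of neurons, was found in 86.9% of Kenyon-marker, 59.5% of glia-marker and 70.3% of other barcodes. These shares are not at equal depth between the gates. The glia-marker barcodes thus also held transcripts of neurons.

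Kenyon cells are the intrinsic neurons of the mushroom body, and in Kenyon-marker barcodes both Pax6 genes were frequent. At 1000 UMIs ey was held by 32.0% of Kenyon-marker barcodes, against 1.25% of glia-marker and 3.80% of other barcodes. The related gene toy was held by 53.1% of Kenyon-marker barcodes, against 11.003% of glia-marker and 19.9% of other barcodes. Most of the other factors were rarer there than in the remaining barcodes. The others above them were Vsx1, with 4.51% against 4.44% of other barcodes, Rx, with 0.737% against 0.656%, and the rare lab, vnd and OdsH. For example, ct was held by 17.2% of Kenyon-marker barcodes and scro by 5.65%, against 53.0% and 23.7% of the barcodes outside both gates. By library, the share of ct in Kenyon-marker barcodes ran from 3.35% to 25.4%. The POU genes acj6, vvl and pdm3 were held by 2.98%, 2.93% and 3.67% of Kenyon-marker barcodes.

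Glia-marker barcodes held 14 members more often than the barcodes outside both gates, but 6 of them (ems, inv, lms, Abd-B, Antp and Dfd) rest on 1 of the 718 barcodes each, or 0.139%. For caup the shares were 1.11% and 1.09%. The largest shares were those of ct, at 77.4% of glia-marker against 53.0% of other barcodes, and hth, at 56.1% against 32.8%. Next came vvl with 26.9% against 10.5%, pdm3 with 24.8% against 11.7%, and Drgx, a paired-class gene, with 12.1% against 4.82%. Dll and dve followed with 9.47% against 2.69% and 3.20% against 0.864%. In contrast, onecut was held by 14.1% of glia-marker and 34.1% of other barcodes. Chosen as factors of neuron identity, these 7 members were thus also found, and more often, where repo and other glia markers were found, and the source of those UMIs was not tested.

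**Figure D2:**
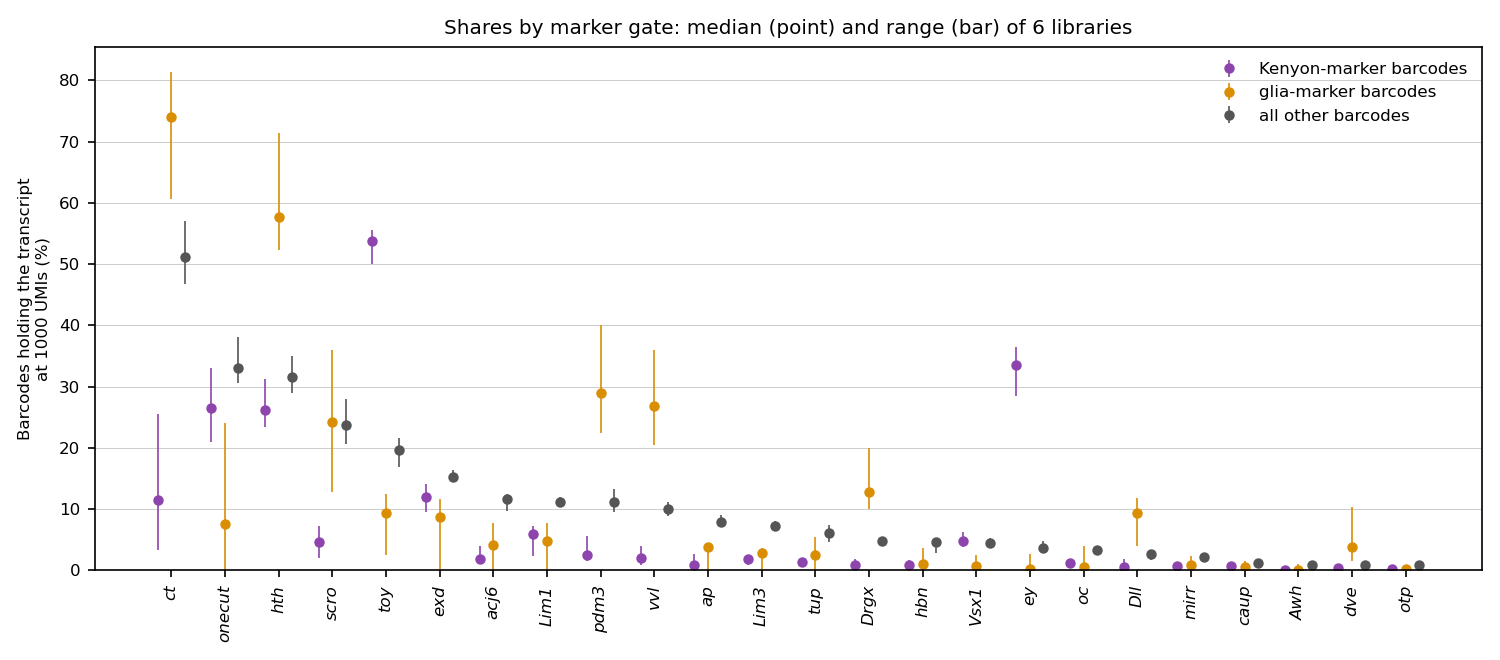
Share of barcodes holding a transcript at 1000 UMIs, in percent, for the more frequent members in Kenyon-marker, glia-marker and all other barcodes, with the point at the median and the bar over the range of 6 libraries. The Pax6 genes ey and toy are highest in Kenyon-marker barcodes, and ct, hth, vvl, pdm3, Drgx, Dll and dve in glia-marker barcodes.

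To ask which transmitter goes with each factor, barcodes were classed by the vesicular transporter or enzyme they held. A class needed at least 2 UMIs of VAChT (acetylcholine), VGlut (glutamate), Gad1 (GABA) or Vmat (monoamines) and none of the other 3. This gave 29016 VAChT, 11881 VGlut, 7984 Gad1 and 481 Vmat barcodes, and the Vmat class had 24 to 145 per library. Among classed barcodes of the median library, 57.0% were of the VAChT, 24.7% of the VGlut, 16.3% of the Gad1 and 1.01% of the Vmat class. The most frequent class among barcodes holding a factor was VAChT for 35 members. It was Gad1 for Lim3, ara, caup, Antp, Dfd and Ubx, and VGlut for tup, oc, mirr and hbn.

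Several factors were found mostly in the VAChT class. In the median library the VAChT class made up 93.2% of classed barcodes holding acj6, 89.3% of those holding Drgx and 88.3% of those holding ap. At the other end, 22.4% of barcodes holding hbn, 24.2% of those holding mirr and 25.2% of those holding Lim3 or tup were of the VAChT class.

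UMIs were then summed per class and library and compared within libraries, each class with the mean of the other fast-transmitter classes, by edgeR's quasi-likelihood test with Benjamini-Hochberg adjustment over 8046 features. In such sums, fewer cells with a transcript and less transcript per cell cannot be told apart. Of the 45 members, 12 had too few UMIs to be tested (OdsH, unpg, vnd, ems, C15, inv, en, lms, Abd-B, Antp, lab and Ubx). In the VAChT contrast, 24 of the 33 tested members passed an adjusted p of 0.05, 13 higher and 11 lower, where 30.7% of all features passed, 14.4% higher and 16.3% lower. In the VGlut contrast, 22 passed, 11 higher and 11 lower, against 12.7% of all features, 5.94% higher and 6.71% lower. In the Gad1 contrast, 26 passed, 12 higher and 14 lower, against 20.6% of all features, 11.8% higher and 8.75% lower. Only exd, onecut, nub and pdm2 passed in none of these 3 contrasts.

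The members fell into patterns over the 3 fast transmitters. The POU genes acj6, vvl and pdm3, together with Drgx, were higher in the VAChT class and lower in both others. The factors otp, Rx, scro and so were higher in the VAChT and VGlut contrasts and lower in the Gad1 contrast. For otp, Rx and so the Gad1 class held few UMIs, and the increases in both other contrasts depend on that class. Within every library otp and Rx were lower in the VAChT than in the VGlut class. The Pax6 genes ey and toy were higher in VAChT and Gad1 and lower in VGlut, although in the Gad1 contrast both lost their call in barcodes of at least 2000 UMIs, with log2 fold changes of -0.04 for ey and -0.08 for toy. The Iroquois genes ara and caup, with Lim3, Dll and Dfd, were lower in VAChT and higher in Gad1. The Iroquois gene mirr and hbn were lower in VAChT and higher in both others, and oc, Vsx1 and dve were higher in VGlut alone. Finally hth, Ptx1 and Scr were lower in VGlut and higher in Gad1. Beside ey and toy, some calls in these contrasts were lost in at least 1 of the 19 alternatives, with the direction kept. They were those of Dfd and Vsx1 in the VAChT contrast, of pdm3, Ptx1, Awh and ct in the VGlut contrast, and of vvl, dve, Vsx1, Ptx1, Awh and bsh in the Gad1 contrast.

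The VAChT class differed most in acj6, a POU factor required for the identity of olfactory projection and receptor neurons. It stood at 303, 294 and 285 CPM in the KI and at 239, 338 and 325 CPM in the Control libraries of the VAChT class, against 13.4 to 39.2 CPM in the VGlut and 18.04 to 39.0 CPM in the Gad1 class. The classes did not overlap in any library, and the log2 fold change was 3.46 (SE 0.10, adjusted p = 6.38e-20). Drgx, whose mouse relative acts in nociceptive circuits, stood at 90.8, 76.8 and 80.2 CPM in KI and 69.5, 94.9 and 86.3 CPM in Control libraries of the class. The VGlut class held 3.36 to 14.9 CPM and the Gad1 class 1.20 to 9.87 CPM. The log2 fold change was 3.37 (SE 0.15, adjusted p = 5.27e-16).

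A LIM factor and an NK factor came next. The transcript of ap, which directs axon paths of interneurons, stood at 100.5, 142 and 109.6 CPM in KI and 97.2, 95.04 and 119 CPM in Control libraries of the VAChT class, against 25.4 to 50.01 CPM in VGlut and 3.76 to 14.0 CPM in Gad1. The log2 fold change of ap was 2.72 (SE 0.09, adjusted p = 2.06e-18). For scro the levels were 331, 360 and 457 CPM in KI and 259, 341 and 418 CPM in Control libraries, against 167.5 to 398 CPM in VGlut and 12.3 to 66.3 CPM in Gad1. The VAChT and VGlut ranges of scro overlapped between libraries, the Gad1 class lay apart, and the log2 fold change was 1.89 (SE 0.13, adjusted p = 5.86e-12). The VAChT class held Kenyon-marker barcodes at 7.79% to 13.9%, against 0.378% to 1.19% in VGlut and 0 to 1.46% in Gad1, a difference whose part in these results was not tested.

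In the VGlut contrast, the members with the largest increases were at very low levels in the Gad1 class. The paired-class gene otp, known from neuroendocrine neurons in vertebrates, stood at 27.8, 23.7 and 23.2 CPM in KI and 12.7, 20.4 and 21.2 CPM in Control libraries of the VGlut class. It stood at 8.16 to 21.5 CPM in the VAChT and 0 to 2.07 CPM in the Gad1 class, with a log2 fold change of 2.33 (SE 0.15, adjusted p = 4.48e-12). Within every library otp was higher in the VGlut than in the VAChT class. The eye-field gene so stood at 1.67, 5.12 and 2.80 CPM in KI and 5.63, 1.63 and 6.91 CPM in Control libraries of the VGlut class, against 1.44 to 5.14 CPM in VAChT and 0 to 0.46 CPM in Gad1. It exceeded the VAChT class in all libraries but Control replicate 2, and its log2 fold change of 2.19 (SE 0.35, adjusted p = 9.85e-05) rests on a Gad1 class with hardly any UMIs.

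The retinal homeobox gene Rx stood at 14.3, 16.4 and 8.96 CPM in KI and 11.96, 11.6 and 12.2 CPM in Control libraries of the VGlut class, against 6.42 to 9.92 CPM in VAChT and 0 to 2.75 CPM in Gad1. It was higher in VGlut than in VAChT in every library, and its log2 fold change was 2.01 (SE 0.18, adjusted p = 2.53e-09). Of these 4, the head-gap gene oc was the one above both other classes without overlap. Its levels were 87.8, 106 and 122 CPM in KI and 103, 110.0 and 141 CPM in Control libraries of the VGlut class, against 20.8 to 34.1 CPM in VAChT and 21.0 to 42.5 CPM in Gad1. The classes did not overlap, and the log2 fold change was 1.94 (SE 0.11, adjusted p = 4.80e-13). The LIM gene tup, a marker of motor neurons in the nerve cord, and hbn and mirr also rose in this contrast, by 1.77, 1.48 and 1.46 on the log2 scale.

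The Gad1 contrast was led by the Hox genes Dfd and Scr, the Iroquois gene ara and the LIM gene Lim3. Lim3 had the most UMIs of the 4, with 268, 373 and 344 CPM in KI and 203, 270.3 and 472 CPM in Control libraries of the Gad1 class, against 35.9 to 47.4 CPM in VAChT and 71.8 to 163 CPM in VGlut. The Gad1 class was the highest in every library, with a log2 fold change of 2.23 (SE 0.08, adjusted p = 2.36e-17). For ara the levels were 25.8, 38.3 and 36.3 CPM in KI and 66.9, 46.7 and 53.8 CPM in Control libraries of the class, against 2.72 to 9.20 CPM in VAChT and 10.3 to 31.9 CPM in VGlut. Its log2 fold change was 2.23 (SE 0.13, adjusted p = 3.72e-13), and its neighbour and relative caup rose by 1.97 on the log2 scale.

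Dfd stood at 8.34, 10.1 and 5.19 CPM in KI and 3.01, 11.1 and 10.9 CPM in Control libraries of the Gad1 class, against 0.74 to 2.25 CPM in VAChT and 0.36 to 5.04 CPM in VGlut. The fold change of Dfd was 2.31 on the log2 scale (SE 0.31, adjusted p = 2.18e-06). Scr stood at 10.3, 7.12 and 10.8 CPM in KI and 5.26, 11.2 and 5.45 CPM in Control libraries of the class, against 2.88 to 5.19 CPM in VAChT and 0 to 1.96 CPM in VGlut. Its log2 fold change was 2.08 (SE 0.23, adjusted p = 7.41e-08). In all 6 libraries both genes lay higher in the Gad1 class than in the mean of the VAChT and VGlut classes, at levels of a few CPM. The Gad1 and VGlut ranges of Dfd overlapped between libraries.

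**Figure D3:**
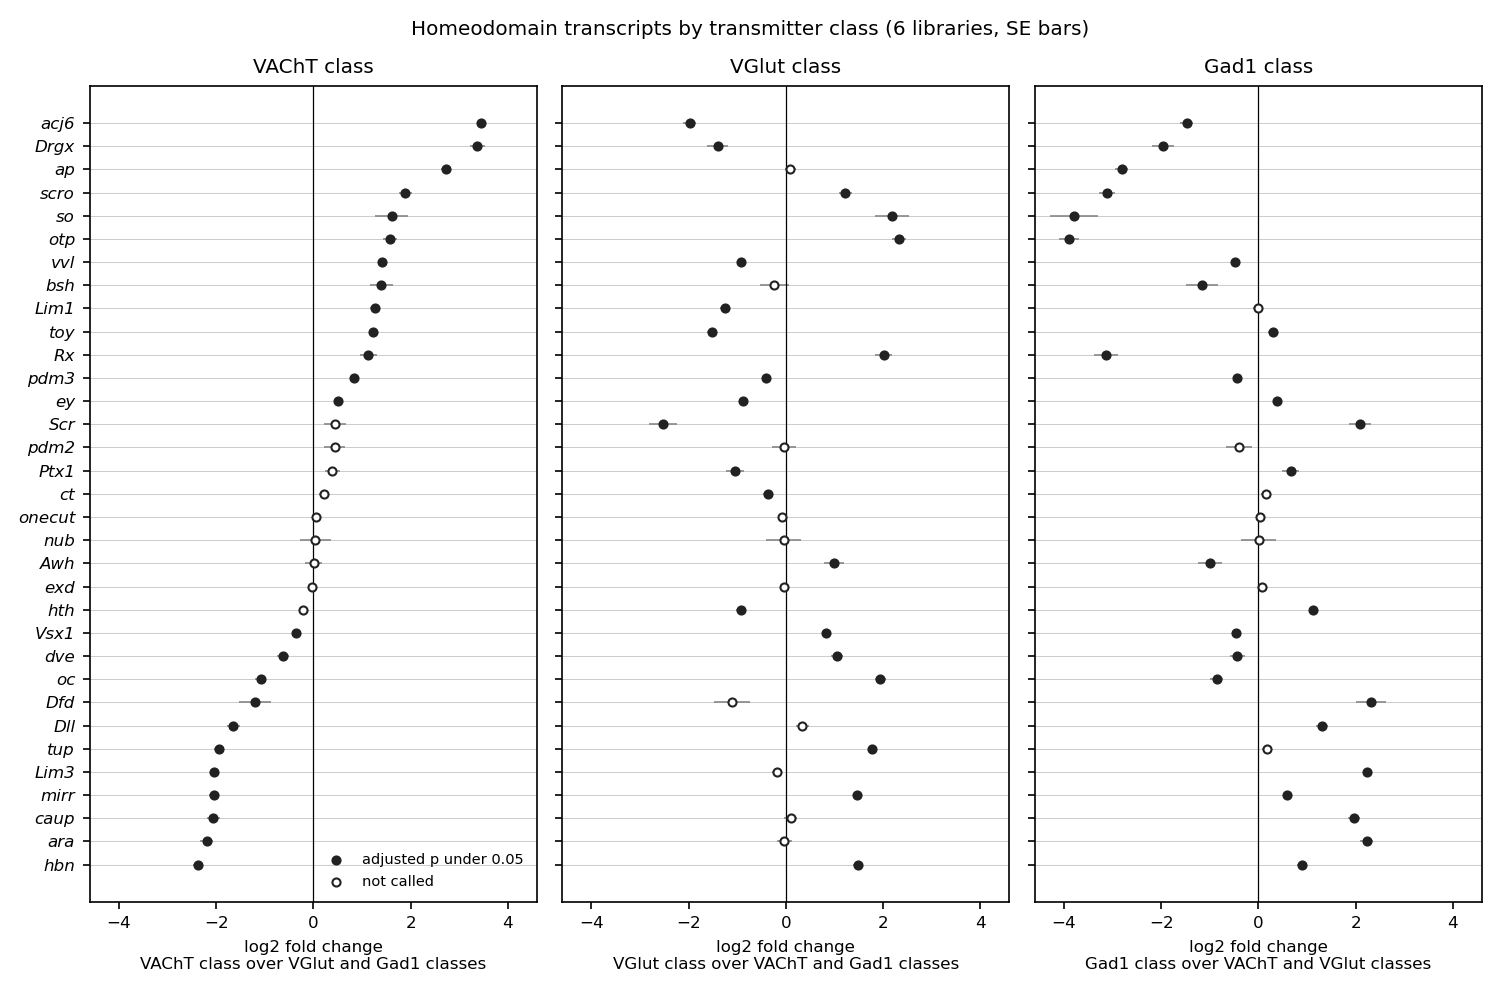
Log2 fold change of the 33 tested members for each fast-transmitter class over the mean of the other 2, from edgeR over 6 libraries, with SE bars and filled points at an adjusted p under 0.05. The acj6 and Drgx transcripts lead the VAChT panel with 3.46 and 3.37, otp the VGlut panel with 2.33, and Dfd, ara and Lim3 the Gad1 panel with 2.31, 2.23 and 2.23.

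The Vmat class was small. In the Vmat contrast, against the mean of the other 3 classes, 23 of the 33 tested members passed, 8 higher and 15 lower, where 37.2% of all features passed, 18.0% higher and 19.2% lower. The class carried more glia transcripts than the others. A repo UMI was found in 6.42% to 23.5% of Vmat barcodes, against 0.243% to 1.46% of VAChT, 0.148% to 1.22% of VGlut and 0.266% to 1.41% of Gad1 barcodes. The 8 glia markers summed to 465 to 1273 CPM in the Vmat class and to 143 to 476 CPM in the VAChT class, and the 5 neuron markers to 3156 to 5565 CPM and 6287 to 7034 CPM. The contrast was therefore repeated without barcodes that held a repo UMI or at least 3 glia markers, an alternative chosen after seeing the data, which left 419 Vmat barcodes. Of the 23 called members, 21 were still called.

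The leading member was dve, a gene known from photoreceptor and lamina patterning. It stood at 169.6, 231 and 136 CPM in KI and 174, 189 and 236 CPM in Control libraries of the Vmat class, against at most 24.4 CPM in any other class and library. The log2 fold change was 3.84 (SE 0.17, adjusted p = 4.12e-16), and 3.18 without the glia-marker barcodes. Drgx stood at 60.1, 109.2 and 124 CPM in KI and 76.3, 98.4 and 114.8 CPM in Control libraries, overlapping the VAChT class, with a log2 fold change of 2.34 (SE 0.31, adjusted p = 5.57e-07). Without the glia-marker barcodes the value for Drgx was 0.91 (adjusted p = 0.203), which ended its call, and ct lost its call as well (-0.10, adjusted p = 0.554).

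The other named members of the Vmat contrast rested on a few libraries. The lamina and medulla factor bsh stood at 2.15, 54.6 and 18.6 CPM in KI and 10.9, 10.1 and 108 CPM in Control libraries of the Vmat class, against 6.07 to 13.7 CPM in the VAChT class. Its log2 fold change of 2.25 (SE 0.53, adjusted p = 0.00120) was 1.60 without Control replicate 3 and 2.66 without the glia-marker barcodes, and its call was lost in the KI libraries alone (1.95, adjusted p = 0.0807). The POU gene pdm2 stood at 6.44, 42.0 and 37.2 CPM in KI and 0, 5.05 and 12.8 CPM in Control libraries. Its log2 fold change of 1.99 (SE 0.49, adjusted p = 0.00176) was 1.55 without KI replicate 2 (adjusted p = 0.0514). Lim1 and pdm3 were higher in the Vmat class than in the mean of the other classes in all 6 libraries. The log2 fold changes were 1.84 and 1.82, and 2.24 and 1.47 without the glia-marker barcodes.

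The combinations of factors in a barcode were counted for all 990 pairs. The expected number of barcodes holding both was computed from each member's share within 10 bins of depth in each library, and the ratio of observed to expected barcodes is given with its range over the 6 libraries. Of the 629 pairs with at least 20 expected barcodes, 140 lay above 1 and 240 below 1 in all 6 libraries, with a median ratio of 0.943. The ratio was at least 2 in all libraries for 15 pairs and at most 0.5 in all for 15 pairs. Removing the barcodes with the highest doublet scores moved the ratios of the pairs named by rule further from 1, other than that of inv and en. This took out 22.2%, 24.5% and 6.34% of KI and 4.37%, 19.4% and 4.55% of Control barcodes. The score rose with depth, with correlations with log UMIs of 0.591 to 0.703 by library, and the part of depth in these moves was not tested.

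Among the named pairs, the highest ratios belonged to sister genes that lie next or close to each other in the genome. For inv and en, neighbouring engrailed-type genes of posterior compartments, 38 barcodes held both, at a ratio of 78.8 (31.7 to 121). For the POU sisters nub and pdm2, which the annotation places with 1 coding gene, Ref2, between them, 244 barcodes held both, at a ratio of 38.8 (30.4 to 67.4). These were 59.1% of barcodes with nub and 44.7% of those with pdm2. For ara and caup, neighbours in the Iroquois complex, 1182 barcodes held both, at a ratio of 20.0 (17.7 to 27.2), or 71.1% of those with ara and 55.9% of those with caup.

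The third Iroquois gene, mirr, was found with caup in 616 barcodes at a ratio of 5.25 (3.79 to 7.94) and with ara in 462 barcodes at 4.92 (3.56 to 7.32). Among classed barcodes with both ara and caup, 43.4% were of the Gad1, 29.7% of the VAChT and 26.8% of the VGlut class. The Hox neighbours Dfd and Scr shared only 19 barcodes, at a ratio of 5.82 (0 to 9.20). How reads shared by sister genes were counted is not given in the sources used here, and the counts of sister pairs are uncertain to that extent.

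Pairs of genes that are not sisters also went together. C15, a clawless-type gene, and Ptx1, a Pitx gene, shared 101 barcodes, at ratios of 12.4, 12.6 and 16.1 in KI and 31.0, 24.3 and 25.9 in Control libraries. The KI ratios all lay below the Control ratios, as they did for 4.57% of the 350 pairs with at least 50 barcodes in all and 3 in each library, and the difference was not tested. C15 and acj6 shared 206 barcodes at a ratio of 4.20 (3.54 to 7.63), which were 77.7% of those with C15, and Lim3 and C15 shared 153 at 3.26 (2.68 to 5.91). Of the 47 classed barcodes with C15 and Ptx1, 97.9% were of the VAChT class. The barcodes with C15 thus also held acj6, Lim3 and Ptx1 more often than their depth gave.

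Among frequent factors, acj6 and Drgx shared 5100 barcodes at a ratio of 3.71 (3.16 to 5.48), and 96.7% of the classed ones were of the VAChT class. Lim1 went with Drgx at 2.54 (2.19 to 3.63), with Rx at 2.47 (2.30 to 3.55) and with ems at 3.69 (2.95 to 6.89), and 80.3% of barcodes with ems held Lim1. The genes oc, Awh and hbn went together in each pairing, and dve went with oc and with Ptx1 (3.67, range 3.33 to 4.70). The ratio was 4.94 (4.45 to 6.19) for oc and dve, 3.59 (3.26 to 5.06) for oc and Awh, 3.77 (3.24 to 7.31) for hbn and Awh, and 2.74 (2.39 to 5.20) for oc and hbn. The classed barcodes with oc and hbn were 63.4% VGlut, whereas those with Dll and hbn, at a ratio of 3.92 (3.20 to 7.27), were 62.2% Gad1. The same factor, hbn, was thus found with different transmitters according to its partner. The pair mirr and Dfd, at 5.37 (4.61 to 7.92), shared 100 barcodes, of which 54.5% of the classed ones were Gad1.

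Other pairs were found together less often than expected. Among the 400 pairs with at least 100 expected barcodes, the lowest ratios were those of oc and Ptx1, with 30 barcodes against 105 expected (0.29, range 0 to 0.41), ey and ara, with 85 against 262 (0.32, range 0 to 0.43), otp and oc, with 46 against 140 (0.33, range 0.21 to 0.46), and ey and caup, with 108 against 329 (0.33, range 0 to 0.41). The Pax6 gene ey was thus low with both Iroquois sisters. Lim1 and Lim3, LIM factors of different interneuron and motor neuron groups, shared 1272 barcodes against 2359 expected, a ratio of 0.54 (0.30 to 0.63). All 5 ratios lay below 1 in every library. With the highest doublet scores removed they were 0.18, 0.17, 0.23, 0.17 and 0.39.

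Pairs known to act together were not all enriched. The cofactors hth and exd shared 20997 barcodes, at a ratio of 1.01 (1.01 to 1.03), and both were frequent in every transmitter class. The lamina pair ap and bsh shared 448 barcodes at 1.90 (1.55 to 2.62), of which 95.5% of the classed ones were VAChT, and bsh and hth reached 1.19 (1.13 to 1.46). The POU genes vvl and nub had a ratio of 1.54 (0.92 to 3.65), below 1 in KI replicate 3. The Pax6 genes ey and toy shared 6781 barcodes at 1.57 (1.54 to 1.75). Of those barcodes 53.5% were Kenyon-marker barcodes, within which the ratio was 1.07 (1.02 to 1.10), and outside that gate it was 1.33 (1.24 to 1.47).

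**Figure D4:**
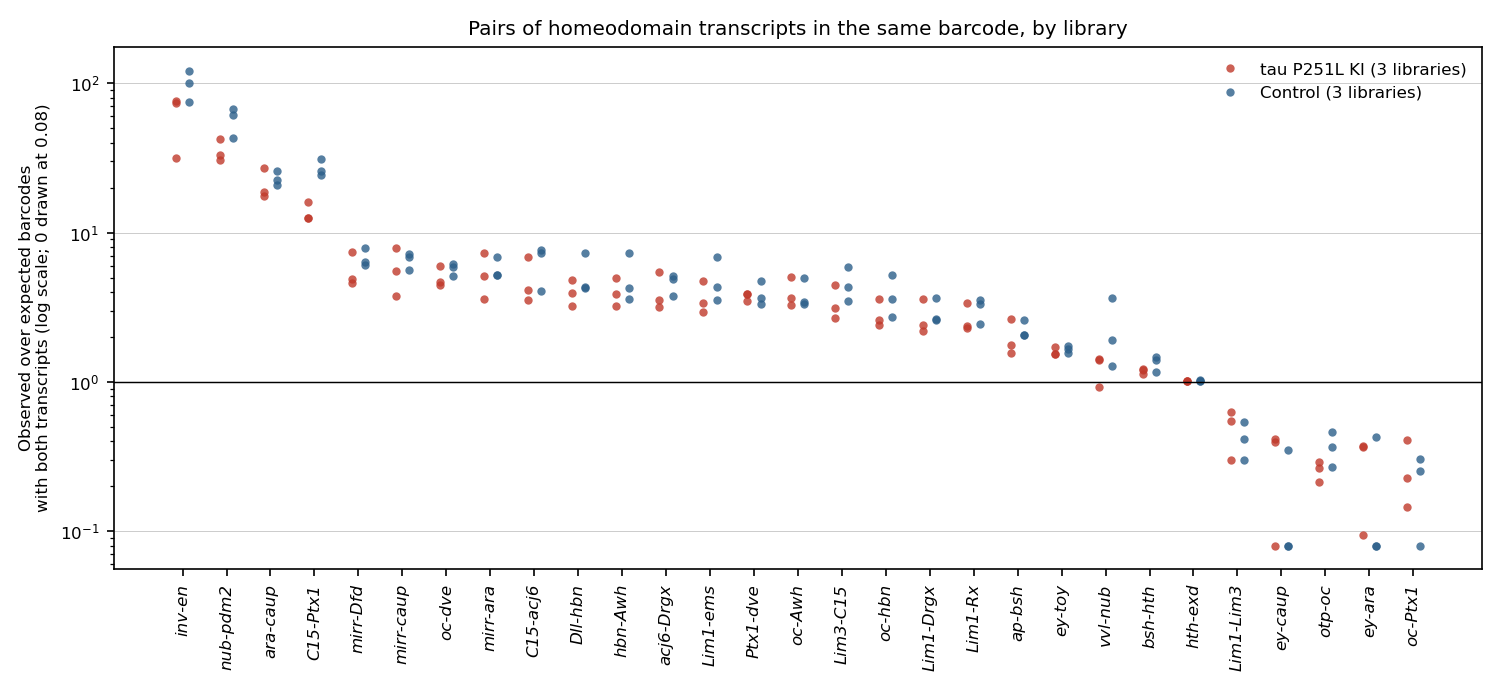
Ratio of observed to expected barcodes with both transcripts of a pair, on a log axis with 1 point per library (tau P251L KI left, Control right) and ratios of 0 drawn at 0.08. Sister pairs inv-en, nub-pdm2 and ara-caup lie highest with 78.8, 38.8 and 20.0 over all libraries, hth-exd lies at 1.01, and oc-Ptx1 lowest at 0.29. The value for inv-en comes from 38 barcodes against 0.48 expected.

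No member passed an adjusted p of 0.05 between tau P251L KI and Control. Over all barcodes of at least 1000 UMIs, 0 of the 44 tested members were called, where 0.223% of the 11200 features were (edgeR's quasi-likelihood test with Benjamini-Hochberg adjustment), and DESeq2 called 0 members as well. Without KI replicate 3, the library with the low tau level, 0 members were called too. At an unadjusted p under 0.05, 6 members stood (vnd, ems, Ptx1, pdm2, nub and hbn), and 12.0% of all features did. Only OdsH had too few UMIs to be tested. The members' median log2 fold change was 0.16, and 35 of the 44 were above 0, beside a median of 0.00 over all features.

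The groups of 3 libraries did not overlap for 11 members (vnd, ems, Ptx1, pdm2, nub, hbn, Dll, Dfd, hth, onecut and C15), where 18.8% of all features had groups that did not overlap. All 11 lay higher in KI, and 8.88% of all features were higher without overlap. The fat body markers given above also differed between the groups without overlap, and their part in these values was not tested.

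The 3 members with the smallest p were vnd, ems and Ptx1. The ventral column gene vnd stood at 1.00, 1.29 and 0.966 CPM in KI and 0.398, 0.347 and 0.624 CPM in Control libraries, from 88, 85 and 23 UMIs and 5, 29 and 9 UMIs. Its log2 fold change was 1.30 (SE 0.39, adjusted p = 0.290). The levels of ems were 1.06, 0.928 and 2.77 CPM in KI and 0.398, 0.694 and 0.555 CPM in Control libraries, with a log2 fold change of 1.45 (SE 0.53, adjusted p = 0.372) that was 0.82 without KI replicate 3. Ptx1 stood at 9.14, 8.55 and 8.23 CPM in KI and 6.85, 5.98 and 5.90 CPM in Control libraries, with a log2 fold change of 0.47 (SE 0.18, adjusted p = 0.373). The groups did not overlap for any of the 3, but none passed the adjusted threshold.

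Among the others without overlap, hbn had more UMIs. It stood at 61.4, 64.2 and 69.2 CPM in KI and 33.4, 54.2 and 53.6 CPM in Control libraries, a log2 fold change of 0.46 (SE 0.20, adjusted p = 0.416). The POU sisters went the same way, with pdm2 at 4.44, 4.87 and 4.79 CPM in KI against 3.19, 3.42 and 2.91 CPM in Control libraries, and nub at 2.69, 2.95 and 4.03 CPM against 1.83, 1.98 and 2.08 CPM (adjusted p = 0.387 for both). The factor with the largest increase in a fast-transmitter class, acj6, stood at 198, 183 and 172 CPM in KI and 140.3, 214 and 204 CPM in Control libraries, a log2 fold change of -0.02 (SE 0.17, adjusted p = 0.973) with overlapping groups.

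Within transmitter classes no member was called either. In the VAChT class 0 of 38 tested members were called, where 0.384% of all features were, and DESeq2 called 0 as well. At an unadjusted p under 0.05 stood 4 members (vnd, Ptx1, ems and so), and 9.09% of all features did. The groups did not overlap for 8 members there, against 16.0% of all features. Of these, vnd, Ptx1, ems, hbn, dve and hth were higher in KI, as 8.02% of features were, and so and en lower, as 7.94% of features were. The level of vnd in this class was 1.49, 1.33 and 1.502 CPM in KI and 0.25, 0.44 and 0 CPM in Control libraries, from 41, 22 and 14 UMIs and 1, 12 and 0 UMIs (adjusted p = 0.331 by edgeR).

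In the VGlut class 0 of 31 were called, against 0.202% of features, and DESeq2 called 0. At an unadjusted p under 0.05 stood 2 members, nub and pdm2, and 6.6% of features did. The groups did not overlap for nub and otp, against 12.2% of features, and both lay higher in KI, as 5.72% of features did. The nub transcript stood at 2.30, 4.22 and 5.92 CPM in KI and 2.14, 1.11 and 1.06 CPM in Control libraries of the VGlut class (adjusted p = 0.752 by edgeR). In the Gad1 class 0 of 30 were called, against 0.268% of features, and DESeq2 called 0. At an unadjusted p under 0.05 stood ara and Ptx1, and 6.4% of features did. Their groups did not overlap, against 12.5% of features, with Ptx1 higher in KI, as 6.16% of features were, and ara lower, as 6.37% were.

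Scaled within the Gad1 class alone, ara stood at 25.2, 37.2 and 35.3 CPM in KI and 65.6, 45.5 and 52.1 CPM in Control libraries, a log2 fold change of -0.73 (SE 0.21, adjusted p = 0.499). When only all-zero features were left out of that fit, ara was called, at -0.75 (adjusted p = 0.0326). Ptx1 in that class stood at 14.6, 8.92 and 13.2 CPM in KI and 5.16, 5.93 and 7.92 CPM in Control libraries, a log2 fold change of 0.96 (SE 0.30, adjusted p = 0.547). A genotype-by-class interaction over the 3 classes, fitted by edgeR over 8245 features, called 0 features and 0 of 33 members, with 1 member (pdm3, unadjusted p = 0.0235) and 367 features at an unadjusted p under 0.05.

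**Figure D5:**
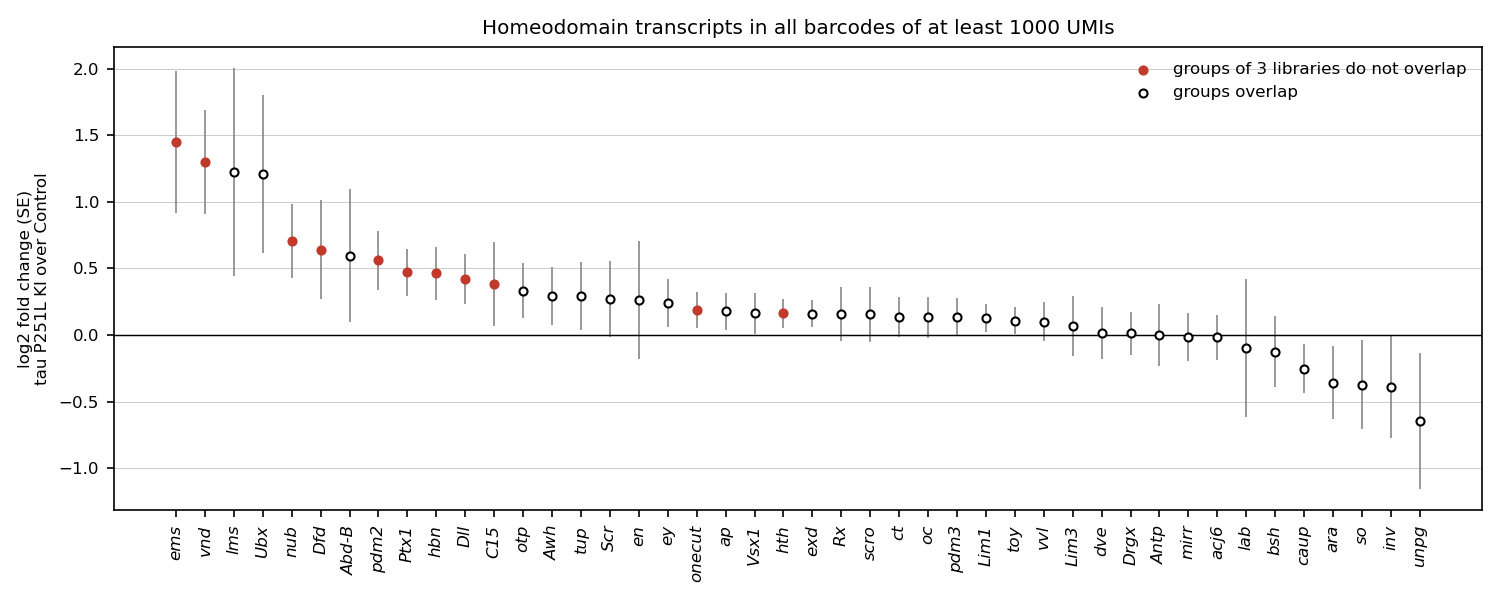
Log2 fold change of tau P251L KI over Control with SE bars for the 44 tested members over all barcodes of at least 1000 UMIs, filled where the 3 KI and 3 Control libraries did not overlap. The values run from 1.45 for ems to -0.65 for unpg, and no member passed an adjusted p of 0.05.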

How the data were processed

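Brains were dissociated for 30 minutes in 0.05% trypsin-EDTA and passed through a 10 µm strainer before droplet libraries were made with a 10x Genomics 3' kit, per the labels' protocols. The authors deposited raw UMI counts per gene and barcode, 1 matrix per library, without a filter to cells. Cell Ranger 6.0 is named in the submitters' processing notes and Cell Ranger 4 in the file headers, per which the matrices were written. The genome build and the use of strand are not given in the sources used here. All 45 members matched an Ensembl annotation of BDGP6 by identifier, and 23 overlap another listed feature. The overlap is on the same strand for 10 and on the opposite strand for 19, with some members in both groups. Their counts are uncertain to that extent.

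Libraries held 22026339 to 114599045 UMIs. Barcodes with at least 1000 UMIs were kept without further filters. Doublets were not removed in the main results, and removal by simulated-doublet scores (0.8% per 1000 barcodes) was an alternative. UMI counts summed per library, or per library and transmitter class, were tested with edgeR 4.0.16 in R 4.3.3 (TMM, filterByExpr, quasi-likelihood test, two-sided, Benjamini-Hochberg adjusted p under 0.05). The genotype was the only term, and class contrasts had the library as a term. DESeq2 1.42.0 was an alternative. The fits were tested on simulated data. CPM values use TMM factors. Shares and pairs are descriptions without a test, and intervals and limits cover counting error only.

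Same-numbered libraries of the genotypes are not stated to be paired. The members and all lists were chosen with earlier results of these data known. Values in every library are given for the 3 members with the smallest genotype p where none was called, the 4 called members with the largest increase per class, the 5 highest and 5 lowest shares, all Hox genes, the 8 pairs with the highest and 4 with the lowest ratios, and fixed pairs. Alternatives with barcodes found in 1 library only or without glia markers, and the test between classes, were added after seeing the data.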

Additional observations from a re-analysis of the deposited data

How the results depend on the processing

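Log2 fold changes were recomputed under each alternative, in 347 combinations. They cover the 3 members with the smallest genotype p and the 4 with the largest increase per class contrast. In 344 of these the direction and the side of the threshold held, and in 0 of these the direction reversed. The 3 lost calls were all in the Vmat contrast: Drgx without glia-marker barcodes (0.91, adjusted p = 0.203), bsh in the KI libraries alone (1.95, adjusted p = 0.0807) and pdm2 without KI replicate 2 (1.55, adjusted p = 0.0514). Called in all 19 alternatives were 22 of 24 members for VAChT, 18 of 22 for VGlut, 18 of 26 for Gad1 and 12 of 23 for Vmat. In the Gad1 contrast 24 of the 26 kept their direction throughout. The other members, ey and toy, turned from 0.38 and 0.29 to -0.04 and -0.08 at a minimum of 2000 UMIs. In the genotype comparisons 0 members were called in any alternative, except that ara fell in the Gad1 class when only all-zero features were left out (-0.75, adjusted p = 0.0326), which made 1 called member. Counts over all features moved more, and the cause was not tested. The genotype count was 25 over all cells, 35 in VAChT, 16 in VGlut and 20 in Gad1. DESeq2 gave 381, 151, 56 and 50, and leaving out only all-zero features 56, 175, 343 and 297. Leaving out 1 library at a time gave 1 to 61, 7 to 93, 3 to 75 and 4 to 80, each highest without KI replicate 3. Classes by at least 1 UMI gave 21 in VAChT and 3 in Gad1. Each library's deviations from the mean of its genotype were correlated between KI and Control libraries. KI replicate 1 correlated best with Control replicate 2 (0.165), and the same-number values were 0.119, 0.0484 and 0.257. The value for the replicates numbered 3 was the highest of all. With only 3 libraries per genotype, these values cannot decide whether same-numbered libraries were paired. With the replicate block the genotype counts were 8 over all cells, 176 in VAChT, 59 in VGlut and 39 in Gad1, and 0 members were called. For the VAChT, VGlut and Gad1 contrasts, no library term gave 635, 268 and 370 features, classes by at least 1 UMI 1329, 516 and 902, and the Control libraries alone, with fewer samples, 1099, 421 and 574, against 2467, 1018 and 1654. Leaving out 1 library gave 1943 to 2507, 757 to 1014, 1238 to 1644 and, for Vmat, 2627 to 2942 features, and Vmat without glia-marker barcodes gave 1713 against 2991. The median member's share was 1.77%. It was 0.860% thinned, 1.40% and 2.72% at minima of 500 and 2000 UMIs, 1.55% with doublets removed and 0.832% when 2 UMIs were required. The median ratio of the named high pairs was 6.39, and 8.26 thinned. The share of a member's positive barcodes with VAChT was 61.9% in the median, and 40.1% thinned. Members of a few CPM rest on few UMIs, and depth limits what can be called for them.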

Other observations

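A further 56 homeodomain genes outside the set were listed by symbol, of which 3 had a median share of at least 10% and 36 one under 0.5%. The atypical homeodomain gene pros, known for ending neuroblast division, was held by 72.7% of barcodes in the median library, followed by NK7.1 with 21.0% and zfh2 with 16.97%. Of the 24 tested in the class contrasts by edgeR's quasi-likelihood test, 10 were higher and 9 lower in VAChT, 9 and 7 in VGlut, 9 and 9 in Gad1, and 4 and 9 in Vmat. Of all features, 14.4% were higher and 16.3% lower in VAChT, and 5.94% and 6.71% in VGlut. The shares were 11.8% and 8.75% in Gad1, and 18.0% and 19.2% in Vmat. In the genotype comparisons 0 of these homeodomain genes were called, of 35 tested over all cells, 29 in VAChT, 18 in VGlut and 19 in Gad1. Of all features, 0.223%, 0.384%, 0.202% and 0.268% were called there.

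The differences between classes were wide for several of these genes. HGTX stood at 6.13 to 12.2 CPM in Gad1, against 0.65 to 1.24 CPM in VAChT and 0 to 0.70 CPM in VGlut, where 5 of 6 libraries were at 0. Its fitted log2 fold change was 5.24 in Gad1 (adjusted p = 5.09e-11) and depends on those libraries. Hmx stood at 0 in all 6 libraries of the Vmat class, against 44.4 to 88.6 CPM in Gad1. CG11085 was higher in the VAChT class by 3.84 on the log2 scale (adjusted p = 4.00e-15), and CG11294 lower by 4.22, with an increase of 3.53 in Gad1 (adjusted p = 2.53e-19). Lmx1a and CG4328, relatives of vertebrate Lmx1, were higher in VGlut by 3.18 and 2.31. The Hox gene pb was higher in Gad1 by 3.65 (adjusted p = 3.72e-13), as Dfd and Scr were. In the Vmat class the glial gene repo was higher by 4.42 (SE 0.35), beside the glia markers given above.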
